A study of Homo sapiens with 6 samples.

Results

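The replication-type histone genes of chromosome 6 were read in 4 ChIPmentation peak lists from IMR90, human fibroblasts grown from embryonic lung. The genes were chosen by position and name: protein-coding RefSeq genes of GRCh38.p14 on chromosome 6 between 25.6 and 28.2 Mb whose symbols begin with H1-, H2AC, H2BC, H3C or H4C. There were 55 of them among 19970 protein-coding genes on chromosomes 1 to 22 and X, namely 6 H1, 12 H2A, 15 H2B, 10 H3 and 12 H4 genes. ChIPmentation cuts and tags antibody-bound chromatin with a transposase. SON, a scaffold protein of nuclear speckles, was profiled in untreated cells and in cells given 3 or 6 days of a treatment named ICM in the labels, which do not expand the name. HMGB2, a chromatin protein with DNA-bending HMG boxes, was profiled in untreated cells that were fixed with EGS and then formaldehyde, whereas formaldehyde alone was used for SON. Target and fixation therefore cannot be told apart in any contrast of SON with HMGB2. An input for HMGB2 and a further HMGB2 library labelled DSG belong to the series and were not analysed here. The stated purpose was to relate both proteins to CTCF, to genome folding and to expression, and the title speaks of senescent cells.

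Histone genes of this type are short and lack introns, and most are transcribed in S phase to package newly copied DNA. Their mRNAs end in a stem-loop instead of a poly(A) tail, and SLBP and the U7 snRNP process that end. Transcription of the clusters takes place in histone locus bodies, which form around the coactivator NPAT. Many H2A and H2B genes lie head to head and share the DNA between them as a promoter. H2A, H2B, H3 and H4 form the nucleosome core, and H1 binds the linker DNA.

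Each group had 1 peak list, so no test between conditions was possible and no difference between lists has a replicate check. On chromosomes 1 to 22 and X the lists held 22216 peaks for untreated SON, 11028 at 3 days, 5481 at 6 days and 5992 for HMGB2. Each peak carries the authors' −log10 p, which for SON is the lower of the values of 2 replicates. These values grow with sequencing depth, which is unknown here, so they are compared only within a list. Rank 1 is the strongest peak of a list, and a percentile is the share of the list's peaks that are weaker. A histone gene was counted as carrying a peak when a peak met its span or the 1 kb on either side. The spans of 50 of the 55 genes were under 800 bp, so a single peak often lay within reach of several genes. A gene without a listed peak is one where no peak passed the authors' threshold at an unknown depth.

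As a check of the labelled cell type, peaks at marker genes were counted, which is not a measure of expression. An untreated SON peak lay at 6 of 10 fibroblast genes, 1 of 4 blood genes, 1 of 4 epithelial genes and 2 of 3 endothelial genes, and an HMGB2 peak at 4, 0, 0 and 0 of them. Among all protein-coding genes 52.7% carried an untreated SON peak and 20.4% an HMGB2 peak. The sets are small, and the SON share of the fibroblast genes was near that of all genes. These counts therefore do not settle the cell type.

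The promoters below are shown because they stand for the range of outcomes. H2AC11 shares its promoter with H2BC11 and carried the strongest untreated SON peak of the 55 genes, H2BC10 carried the strongest HMGB2 peak, H4C5 was the only H4 gene with a peak in every list, and H1-3 had none in any list. Each sequence runs 5′ to 3′ on the gene's strand from 250 bases before to 50 bases after the start site in the RefSeq table of GRCh38.p14. Capitals mark matches to the TATA box TATAAA, to the box CCAAT, to the octamer ATTTGCAT and to the H1 box AAACACA, each searched on both strands. The H4C5 window matched none of them and stands wholly in lower case. The windows are chr6:27132793-27133092 on the plus strand, chr6:26272681-26272980 on the plus strand, chr6:26204360-26204659 on the plus strand and chr6:26234938-26235237 on the minus strand.
H2AC11: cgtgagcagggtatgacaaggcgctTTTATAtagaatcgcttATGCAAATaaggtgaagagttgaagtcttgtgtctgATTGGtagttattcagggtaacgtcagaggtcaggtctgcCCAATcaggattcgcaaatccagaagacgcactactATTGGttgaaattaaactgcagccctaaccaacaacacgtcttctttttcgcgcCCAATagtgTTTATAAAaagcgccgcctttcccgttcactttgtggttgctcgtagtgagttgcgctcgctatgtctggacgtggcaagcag
H2BC10: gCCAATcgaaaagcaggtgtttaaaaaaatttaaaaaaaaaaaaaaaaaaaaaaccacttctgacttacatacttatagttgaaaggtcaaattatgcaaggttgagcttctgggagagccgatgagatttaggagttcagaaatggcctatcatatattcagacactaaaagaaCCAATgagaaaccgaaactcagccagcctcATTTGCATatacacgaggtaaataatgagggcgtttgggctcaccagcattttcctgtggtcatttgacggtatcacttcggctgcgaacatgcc
H4C5: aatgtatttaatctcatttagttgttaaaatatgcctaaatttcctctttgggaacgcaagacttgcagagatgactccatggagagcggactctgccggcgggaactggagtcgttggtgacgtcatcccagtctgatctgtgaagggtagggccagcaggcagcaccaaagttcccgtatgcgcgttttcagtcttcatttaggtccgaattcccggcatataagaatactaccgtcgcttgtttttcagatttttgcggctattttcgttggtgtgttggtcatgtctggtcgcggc
H1-3: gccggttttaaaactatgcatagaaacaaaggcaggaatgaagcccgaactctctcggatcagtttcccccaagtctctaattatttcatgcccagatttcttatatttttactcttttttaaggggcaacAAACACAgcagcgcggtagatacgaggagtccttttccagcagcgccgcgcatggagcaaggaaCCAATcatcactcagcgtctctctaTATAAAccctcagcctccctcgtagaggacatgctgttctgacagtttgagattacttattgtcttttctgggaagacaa

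Promoters of 50 of the 55 genes were in the table, and H4C1, H4C3, H2AC12, H3C11 and H3C12 were not. The octamer, a binding sequence of OCT1 (the POU2F1 product), stood in 12 of 15 H2B and 9 of 11 H2A promoters and in no H1 or H4 promoter. It also stood at 1 of 8 H3 genes, H3C4, whose outer listed start coincides with that of H2AC7. Of 22131 promoter windows of protein-coding genes, 1.65% held it. The H1 box stood in 6 of 6 H1 promoters and in no other promoter of the 50 genes, against 4.41% of the windows. CCAAT was present at 43 of 50 genes (86%) against 34.6% of windows, and 7 of the 10 H4 promoters had none. TATAAA was present at 34 of 50 (68%) against 9.46%. Matches to different motifs were counted separately and may overlap. The median GC content of the histone promoter windows was 42.3% (36.3 to 58%), against 62.3% for all coding windows.

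An untreated SON peak lay at 42 of the 55 histone genes (76.4%, 95% exact Clopper-Pearson interval 63.0 to 86.8%), where 52.7% of all protein-coding genes carried one. An HMGB2 peak lay at 35 (63.6%, 49.6 to 76.2%), where the share of all protein-coding genes was 20.4%. At 3 days of ICM a SON peak lay at 23 genes (41.8%, 28.7 to 55.9%) against 37.1%, and at 6 days at 12 genes (21.8%, 11.8 to 35.0%) against 18.9%. The shares at 3 and 6 days were thus close to those of all genes, while untreated SON and HMGB2 lay above them. The intervals cover counting error only and treat the genes as independent, although neighbours share peaks. A peak in all 4 lists lay at 11 of the 55 genes, against 8.81% of all protein-coding genes. In contrast, 12 of the 55 had no peak in any list, against 44.8% of all.

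Most histone genes are short, so other short genes were also counted, and the part of gene length in these shares was not tested. There were 474 other protein-coding genes of at most 1 kb. Of these, 10.1% carried an untreated SON peak, 6.12% a 3-day peak, 3.16% a 6-day peak and 4.64% an HMGB2 peak. This set leaves out longer genes, although 5 histone genes had spans of 800 bp or more, the longest 13229 bp. Its genes were not matched to the histone genes in expression, so these shares describe this set only. With the 300-base promoter window as the only target, peaks lay on 35, 21, 10 and 30 of 50 histone genes in the order untreated SON, 3 days, 6 days and HMGB2. The shares of all 15811 protein-coding genes with a listed promoter were 40.4%, 28.8%, 11.7% and 13.7% in the same order. With this window the histone share stood above the background in every list, by the widest margin for HMGB2. The window was chosen after the data had been seen, and paired genes were often counted through 1 shared peak. At 3 and 6 days the result differs from that with 1 kb around the span, where the shares were close to those of all genes.

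**Figure D1:**
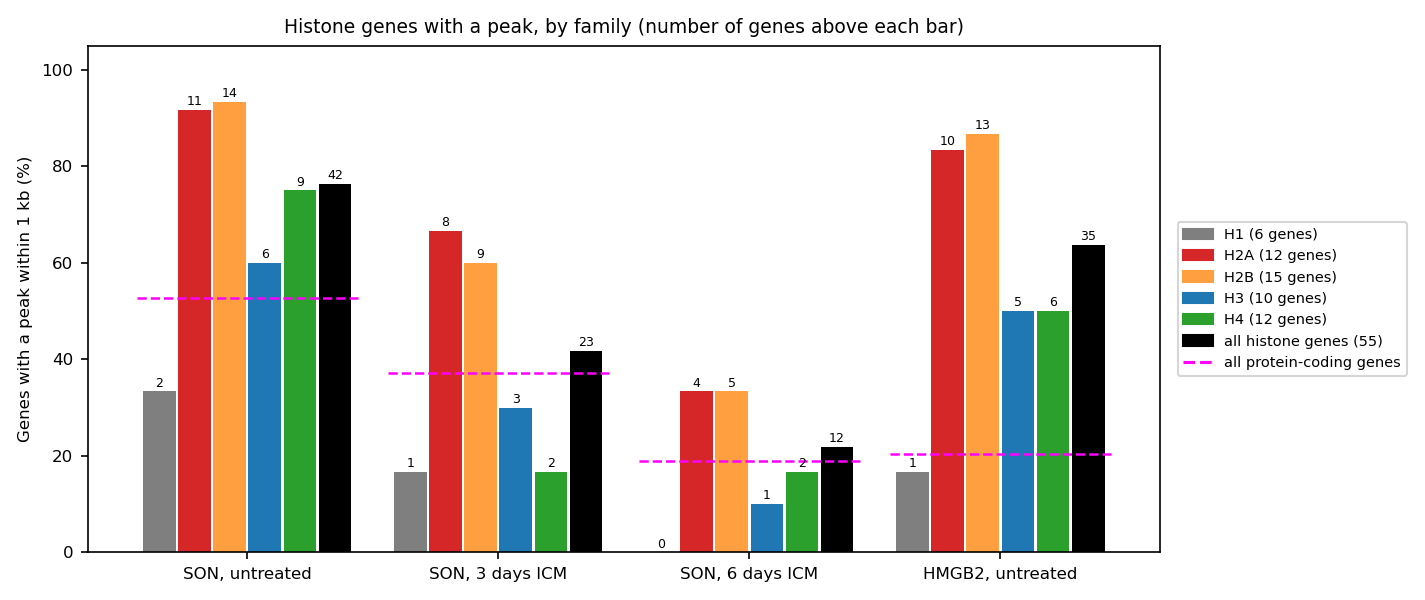
Percent of histone genes of each family with a peak within 1 kb, for the 4 lists on the x axis; numbers above bars are genes and dashed lines mark all protein-coding genes. H2A and H2B stand highest in each list and H1 lowest, level with H4 at 3 days, and the bar for all 55 genes is far above the dashed line for HMGB2 (63.6% against 20.4%).

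The number of genes depended on how many peaks of a list were admitted. With lists of equal length, the 5481 strongest peaks of each, the counts were 26 genes for untreated SON, 18 at 3 days, 12 at 6 days and 35 for HMGB2, against 23.4%, 24.2%, 18.9% and 18.97% of all protein-coding genes under that setting. The global irreproducible discovery rate (IDR) is low where a peak ranks high in both replicates. It can be high at a weak peak with equal values in both. Peaks can also be held to a global IDR no higher than 0.05. The counts were then 36, 15 and 4 for the SON lists, against 40.9%, 21.3% and 4.30% of all protein-coding genes.

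The H2A and H2B genes encode the outer histones of the nucleosome core. A SON peak in untreated cells lay at 11 of 12 H2A and 14 of 15 H2B genes, against 52.7% of all protein-coding genes. An HMGB2 peak lay at 10 and 13, against 20.4%. There were 10 pairs of neighbouring H2A and H2B genes less than 500 bp apart, and 9 of these had a listed strand for both genes, divergent in each case. The space between the genes of a pair measured 193 to 247 bp. It was met by an untreated SON peak in 9 of 10 pairs, by a 3-day peak in 6, by a 6-day peak in 4 and by an HMGB2 peak in 8.

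The strongest of these peaks lay between H2BC11 and H2AC11, on chromosome 6 from 27132421 to 27133121 in untreated cells. Its −log10 p was 55.7, listed identically for both replicates, rank 372 of 22216. At 3 days the peak there had 15.8 in replicate 1 and 43.7 in replicate 2, rank 1988 of 11028, and at 6 days 15.3 in each replicate, rank 477 of 5481. HMGB2 reached 19.2 there, with an enrichment of 5.10 fold, rank 403 of 5992. This promoter was thus among the stronger peaks of each list, at percentiles of 98.3, 82.0, 91.3 and 93.3.

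The space between H2BC12 and H2AC12 also carried a peak in every list, with a −log10 p of 41.5 for untreated SON, 13.4 at 3 days, 12.3 at 6 days and 14.3 for HMGB2. At H2BC8 and H2AC8 the values were 35.2, 10.9, 13.3 and 17.3 in that order, and at H2AC17 and H2BC17 they were 26.8, 11.5, 6.99 and 19.03. The 6-day peak of the last pair had a global IDR of 0.63, the highest in its list and one shared by 39.6% of that list. These 4 pairs supplied 8 of the 11 genes with a peak in every list.

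At 2 further pairs the SON peak was listed at 3 days but not at 6. Between H2BC4 and H2AC6 the SON value was 30.3 in untreated cells and 11.3 at 3 days, with 9.28 for HMGB2. Between H2AC15 and H2BC15 the values were 37.4, 16.5 and 11.7. At 3 pairs SON was listed in untreated cells only, with 18.9 at H2AC7 and H2BC7, 16.03 at H2BC13 and H2AC13 and 14.6 at H2AC14 and H2BC14. HMGB2 had 9.87 at the first of these and 9.66 at the second, and no listed peak at the third. The pairs without a 3-day peak were the 3 weakest of the 9 in the untreated list. The remaining pair, H2AC1 and H2BC1, which encode histones best known from testis, had no peak in any list although both promoter windows hold the octamer and both boxes.

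Of the 7 H2A and H2B genes outside these pairs, each carried an untreated SON peak and an HMGB2 peak, 5 a SON peak at 3 days and 1 at 6 days. H2BC10 was the one listed throughout, and its SON peaks had 31.4 when untreated, then 13.9 and 8.40. Its replicates gave 31.4 and 31.4, then 13.9 and 40.8, then 10.0 and 8.40. Its HMGB2 peak, from 26272811 to 26273107, was the strongest at any of the 55 genes, at a −log10 p of 25.5, 8.69 fold enriched and of rank 175. H2BC5 had a SON peak of 41.8 in untreated cells and 13.3 at 3 days, and an HMGB2 peak of 16.7. At H2BC6 HMGB2 ranked far higher than SON: its HMGB2 peak had 20.0, rank 342 of 5992, while its SON peak had 12.4, rank 8045 of 22216, and was listed in untreated cells only. H2BC3 had 21.96 for untreated SON, 13.7 at 3 days and 18.005 for HMGB2. H2AC4 had 16.9, 7.76 and 10.0, and H2AC16 20.7, 9.55 and 9.501. H2BC9 had 11.2 for untreated SON and 7.72 for HMGB2, with no peak at 3 or 6 days.

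Peaks between paired genes had a median −log10 p of 30.3 in the untreated SON list (9 peaks, 14.6 to 55.7) and the other histone peaks of that list a median of 12.4 (25 peaks, 5.57 to 41.8). For HMGB2 the medians were 13.02 (8 peaks) and 10.5 (24 peaks). This grouping was made after the values had been seen and was not tested.

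The H3 genes encode a core histone that carries much of the regulatory modification of nucleosomes. Of 10 H3 genes, 6 carried a SON peak without treatment, 3 after 3 days and 1 after 6, and 5 carried HMGB2. The shares of all protein-coding genes were 52.7%, 37.1%, 18.9% and 20.4% in that order. The H3 counts for SON were thus near or below these shares. H3C6 was the gene listed throughout. Its SON peak, from 26223853 to 26224572 in untreated cells, had a −log10 p of 26.3, listed identically for both replicates. At 3 days it reached 22.1, again listed identically for both, rank 1112, the highest of any histone gene in that list. At 6 days it had 15.7 and 11.5 in the 2 replicates, and its HMGB2 peak had 10.7. These peaks lay at the outer of 2 listed start sites of H3C6. At the inner one the untreated list had a weaker SON peak of 8.50 and the other lists had none.

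H3C1 had 13.6 for untreated SON, 7.47 at 3 days and 17.1 for HMGB2, and H3C3 had 11.3 and 5.51 in the first 2 of these lists and no HMGB2 peak. H3C2 had a SON peak of 6.75 in untreated cells, near the bottom of the list at the 18.7th percentile. H3C4 and H3C7 were counted through peaks that overlay the promoters of H2AC7 and H2BC9. At the start site of H3C4 that is its own, only HMGB2 had a peak, with 5.03, rank 5898 of 5992. H3C12 had an HMGB2 peak of 16.9 (rank 638) and no SON peak, the only gene of the 55 with HMGB2 alone. H3C8, H3C10 and H3C11 had no peak in any list.

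The H4 genes encode the partner of H3 in the core. Untreated SON peaks lay at 9 of 12 H4 genes, 3-day and 6-day SON peaks at 2 each, and HMGB2 peaks at 6. The shares of all protein-coding genes were 52.7%, 37.1%, 18.9% and 20.4% in that order of lists. The H4 share of 16.7% was below that of all genes at 3 days and near it at 6 days. The strongest untreated SON values of the H4 genes ran from 5.57 to 18.6. Those between paired H2A and H2B genes ran from 14.6 to 55.7, so the ranges overlapped. The strongest were at H4C6, with 18.6, and H4C3, with 18.5 (22.3 and 18.5 in the 2 replicates), then H4C5 with 13.2, H4C4 with 12.1, H4C8 with 10.8, H4C11 with 9.86, H4C12 with 6.97, H4C2 with 5.98 and H4C1 with 5.57. The last 3 had a global IDR of 0.431, the highest in the list.

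H4C5 was the only H4 gene listed throughout, and its later SON peaks were near the bottom of their lists, with 5.78 at 3 days (6.91th percentile) and 5.93 at 6 days (6.99th percentile). H4C3 had no peak at 3 days and one of 6.85 at 6 days with a global IDR of 0.63, the only histone gene listed at 6 days but not at 3. H4C8 had 6.70 at 3 days and none at 6. The HMGB2 values were 14.4 at H4C1, 12.01 at H4C8, 11.4 at H4C5, 9.87 at H4C2, 9.64 at H4C6 and 7.02 at H4C12. H4C1 and H4C2 were thus close to the floor of the SON list and at the 82.8th and 53.8th percentile of the HMGB2 list. At H4C2 the SON summit lay 907 bp downstream of the start and the HMGB2 summit at position −58 bp, so these were separate peaks. The HMGB2 peak given for H4C8 had its summit at position −1011 bp from the start, and the peak on its promoter had 11.2. H4C7, H4C9 and H4C13 had no peak in any list.

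The H1 genes were the least often listed, level with H4 at 3 days. An untreated SON peak lay at 2 of 6, a 3-day peak at 1, a 6-day peak at 0 and an HMGB2 peak at 1. The shares of all protein-coding genes were 52.7%, 37.1%, 18.9% and 20.4% in that order. The HMGB2 count was thus near its share. H1-1, H1-3, H1-5 and H1-6, the last a linker histone of male germ cells, had no peak in any list. H1-2 had an untreated SON peak of 12.4 with its summit 1223 bp downstream of the start, past the 3′ end of the gene, which spans 731 bp. H1-4 was counted through the H2BC5 peak next to it. On its own promoter only HMGB2 had a peak, with 6.44 (12.5th percentile). No H1 promoter window of the 6 met a SON peak in any list.

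Along the chromosome the genes fell into 4 subclusters separated by more than 250 kb. The first, H2AC1 and H2BC1, had no peak. The second ran from H1-1 to H4C8 over 268.5 kb, and 27 of its 32 genes carried an untreated SON peak, 14 a 3-day peak, 6 a 6-day peak and 22 an HMGB2 peak. The third, from H2BC11 to H2AC12 over 15.2 kb, had a peak in every list at 4 of its 5 genes, and the exception was H4C9, which lies inside the annotated span of H2BC12. The fourth, from H2BC13 to H2BC17 over 86.4 kb, had 11, 5, 2 and 9 of 16 genes in the same order of lists.

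Genes with and without peaks alternated within the subclusters. At the start of the second, H1-1 had none while its neighbour H3C1 had SON and HMGB2 peaks. In the fourth, the neighbours H1-5, H3C11, H4C13 and H3C12 formed the longest run without an untreated SON peak, and they were flanked by H2AC16 and H2AC17 with untreated SON values of 20.7 and 26.8. The genes of the 6-day list were H4C3, H4C5, H2BC8, H2AC8, H3C6 and H2BC10 in the second subcluster, the 4 genes of the third and the last pair of the fourth.

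**Figure D2:**
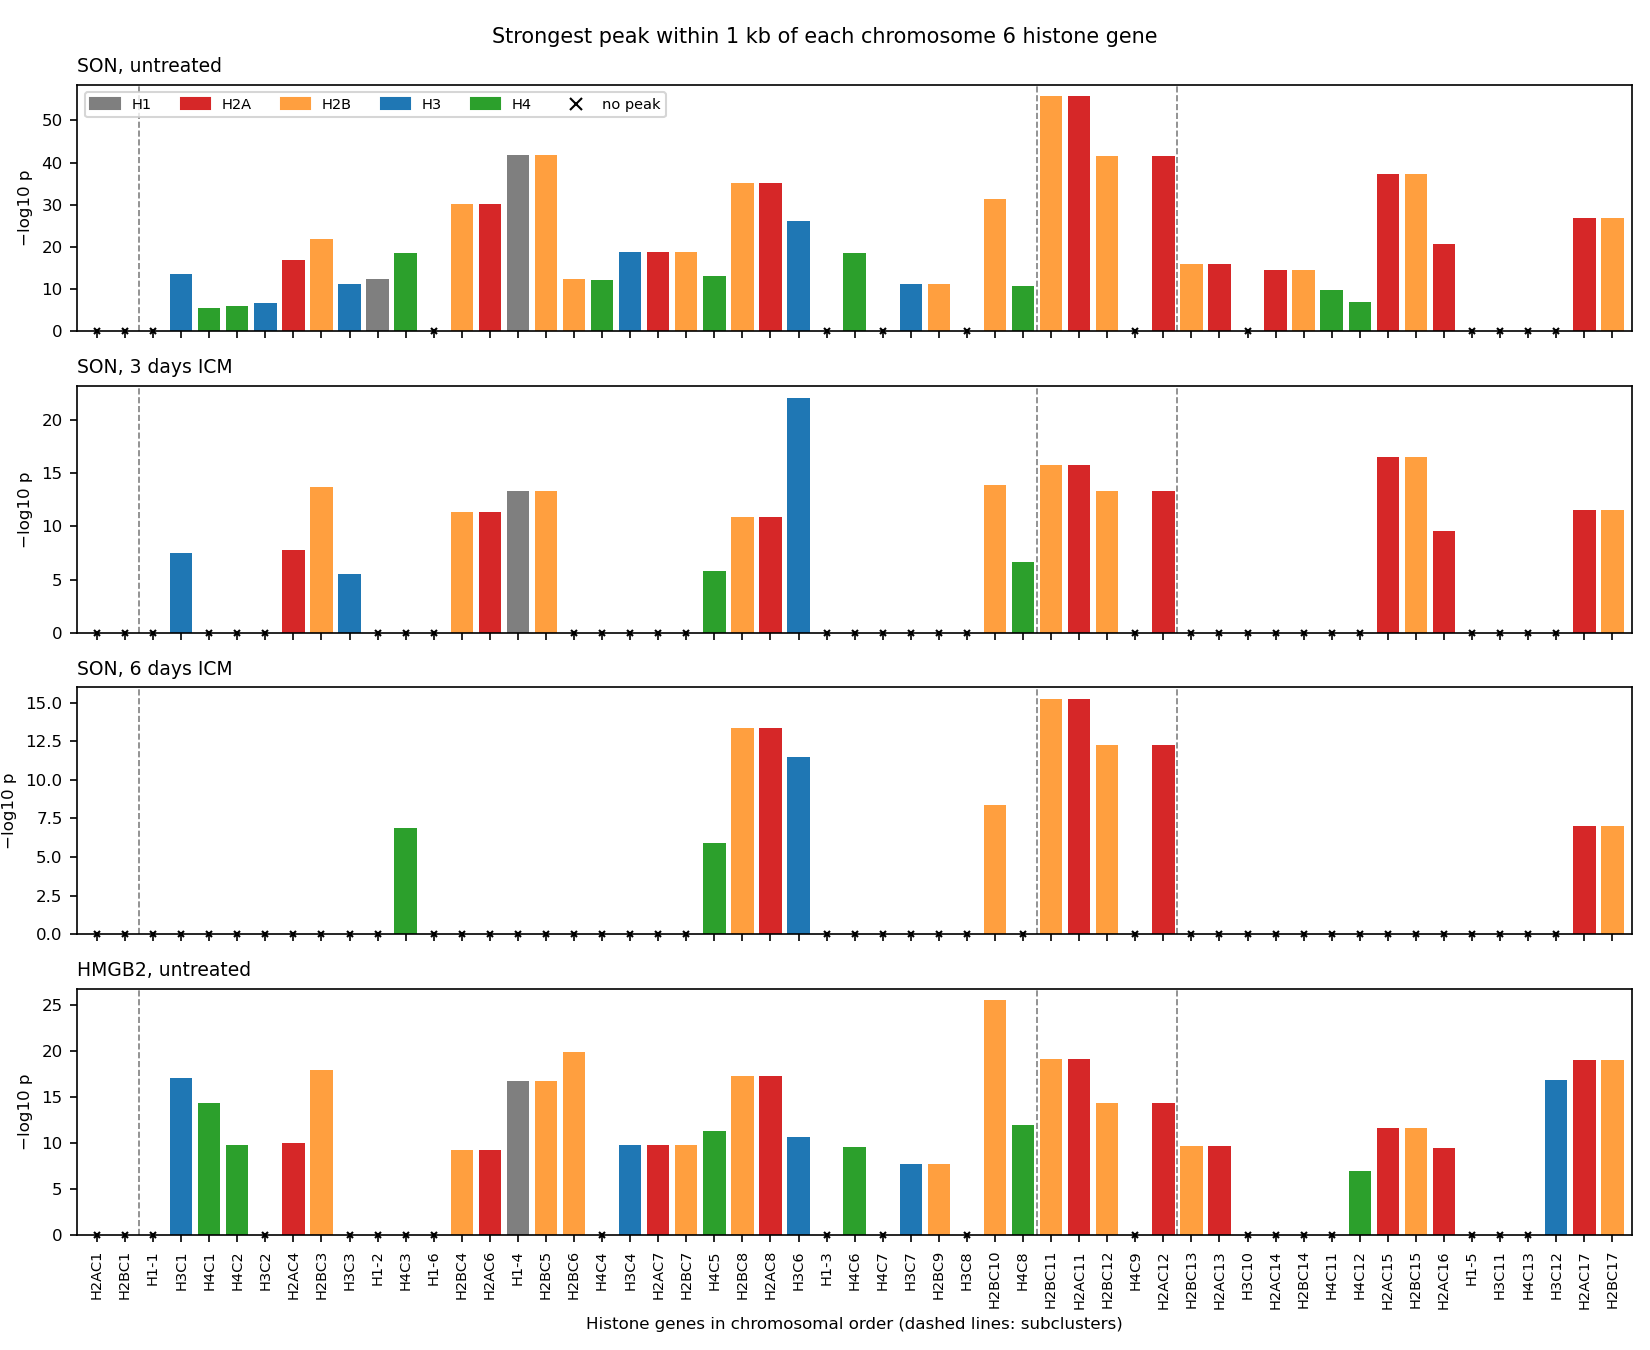
Strongest −log10 p (y axis, separate scale for each list) of any peak within 1 kb of each of the 55 genes in chromosomal order (x axis), coloured by family; crosses mark genes with no listed peak. Adjacent bars of equal height are 1 peak counted for neighbouring genes, and the H2BC11 and H2AC11 bars are the tallest of the untreated SON panel (55.7).

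Counted as peaks instead of genes, the 42 genes of the untreated SON list shared 34 peaks, of which 14 lay within reach of 2 or more genes. The histone genes had 17 peaks in the 3-day list, 8 in the 6-day list and 32 in the HMGB2 list. The median percentiles of the histone peaks were 71.1, 67.3, 64.2 and 61.2 in that order, and 27 of 34, 11 of 17, 4 of 8 and 24 of 32 lay above the median of their list. The best rank of any was 372 for untreated SON, 1112 at 3 days, 477 at 6 days and 175 for HMGB2. The limit of 0.05 on the global IDR was passed by 25 of the 34 untreated peaks, 9 of 17 at 3 days and 2 of 8 at 6 days, against 59.7%, 41.4% and 15% of all peaks of these lists. Of the 34 untreated peaks, 18 carried equal values for the replicates, as 56.0% of all untreated peaks did. How the replicates were made is not given in the sources used here, so identical values are not read as agreement between independent libraries. The IDR rests on these replicate values and carries the same limit.

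Each of the 17 peaks at 3 days and each of the 8 at 6 days overlapped an untreated peak by at least 1 bp, as did 91.6% and 88.9% of all peaks of these lists. In the other direction, 17 of the 34 untreated histone peaks (50%) were met at 3 days and 8 (23.5%) at 6 days, where 45.4% and 21.9% of all untreated peaks were. Among untreated peaks at or above the 80th percentile, 11 of 14 histone peaks were met at 3 days and 7 of 14 at 6 days, against 92.4% and 60.1% of all such peaks. Among the weaker ones it was 6 and 1 of 20, against 33.7% and 12.3%. Over all 34 peaks the shares stood near those of the whole list, but 41.2% of the histone peaks were at or above the 80th percentile. Within each strength group the histone share was below that of all peaks, on small counts and without a test. The 3 histone peaks at or above the 80th percentile without a 3-day peak were at H4C3, at H2AC7 and H2BC7 and at H4C6.

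Over the peaks met in both lists, a stronger untreated SON peak went with a stronger later one, with a Spearman correlation across peaks of 0.79 at 3 days (17 peaks) and 0.90 at 6 days (8 peaks). With HMGB2 it was 0.38 (22 peaks). These describe single libraries, the peaks share genomic neighbourhood and depth, and no test was made.

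**Figure D3:**
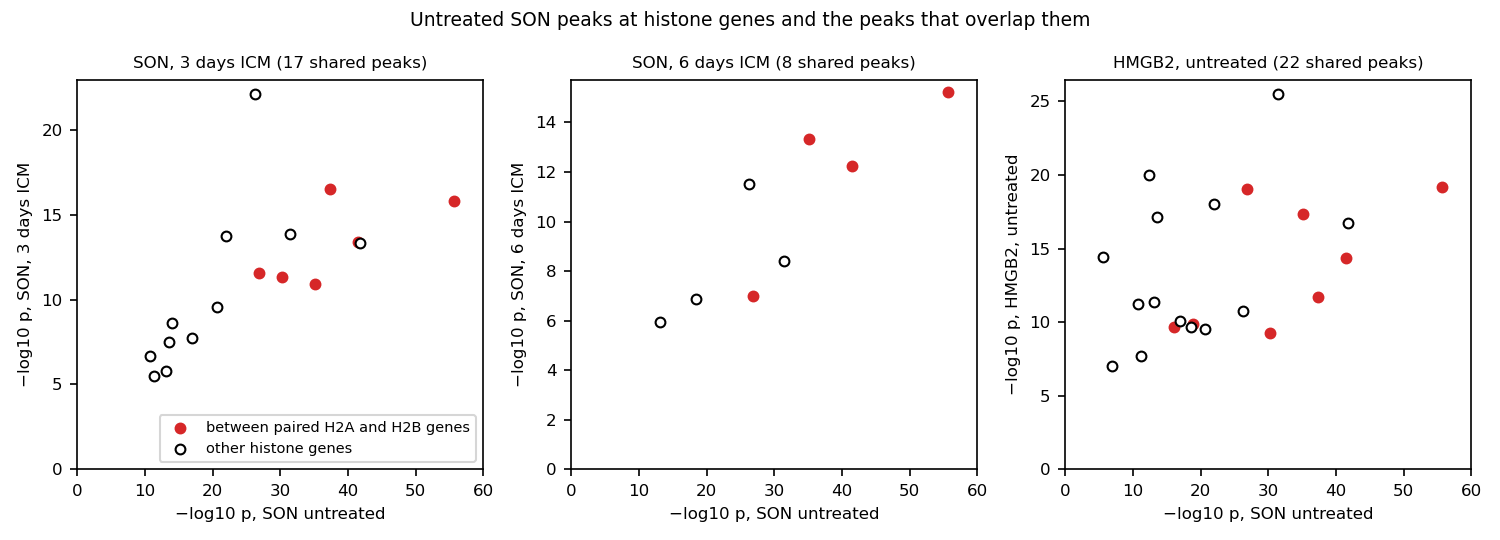
Each point is an untreated SON peak at a histone gene, with its −log10 p on the x axis and that of the strongest overlapping peak on the y axis, for SON at 3 days, SON at 6 days and HMGB2; red points lie between paired H2A and H2B genes. The H2BC11 and H2AC11 peak is the rightmost point of each panel (55.7), and the HMGB2 panel shows the loosest relation.

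SON and HMGB2 peaks coincided at the histone genes. Of the 34 untreated SON peaks, 22 (64.7%) overlapped an HMGB2 peak, against 16.5% of all untreated SON peaks. The difference was present in strong and weak peaks: 13 of 14 against 34.7% at or above the 80th percentile, and 9 of 20 against 11.9% below it. Seen from HMGB2, 23 of 32 peaks (71.9%) overlapped an untreated SON peak, against 62.3% of all HMGB2 peaks. Where they overlapped, the summits lay 2 to 160 bp apart with a median of 46 bp, and the median over all overlapping peaks was 37 bp. Of the later SON peaks, 15 of 17 at 3 days and 7 of 8 at 6 days overlapped an HMGB2 peak of untreated cells, where 23.6% and 25.4% of all peaks of these lists did.

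Most summits lay just upstream of a start site. Peaks were taken within 1 kb of mostly short genes and measured from the nearest start, so closeness was partly set by the selection. No share for other genes was computed. Within 500 bp of the nearest listed start lay 27 of 33 untreated SON summits, 16 of 17 at 3 days, 7 of 7 at 6 days and 24 of 31 HMGB2 summits. Of these, 26, 15, 7 and 21 were on the upstream side. With upstream counted as negative, the median position over all summits was −90 bp for untreated SON, −81 bp at 3 days, −69 bp at 6 days and −58 bp for HMGB2. Between paired genes a point upstream of one start is upstream of both. The summit of the SON peak lay in the space between the genes in all 9 pairs with an untreated peak, in 5 of the 6 with a 3-day peak and in all 4 with a 6-day peak, and that of HMGB2 did so in all 8. The 3-day exception was H2BC11 and H2AC11, where the summit was 34 bp inside H2BC11.

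**Figure D4:**
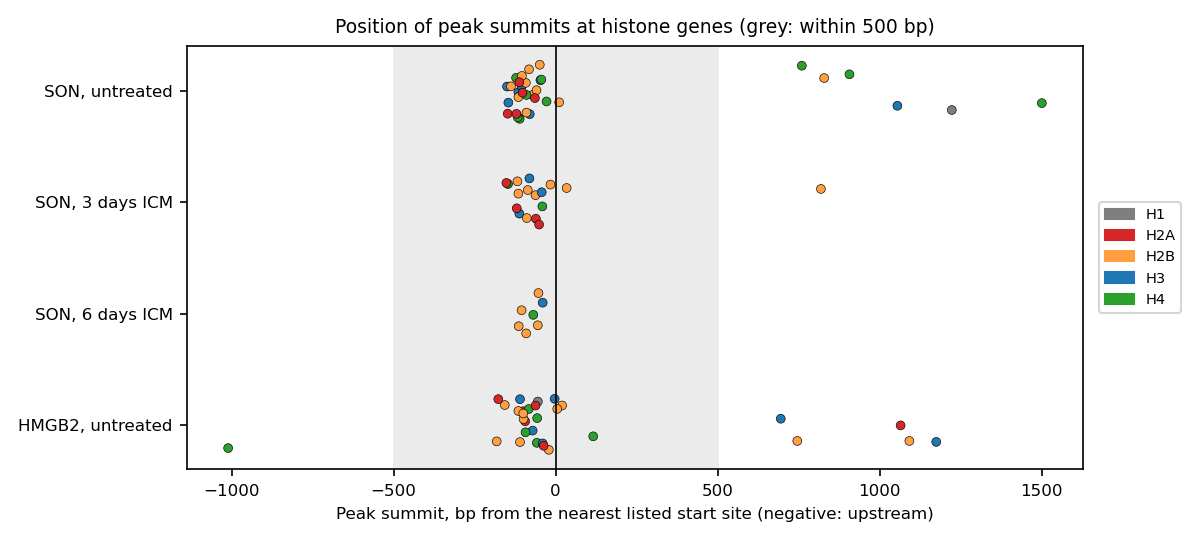
Position of each peak summit relative to the nearest listed start site of a histone gene (x axis, bp, negative upstream), by list and coloured by family of that gene; vertical scatter within a row has no meaning. Most points lie within the grey 500 bp band and just upstream of 0 (27 of 33 untreated SON summits in the band); 1 HMGB2 peak, 13853 bp from the start of H2BC5, is off the scale.

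Promoters with the octamer carried an untreated SON peak at 20 of 22 genes and an HMGB2 peak at 18, and those without it at 15 and 12 of 28. The 2 octamer promoters without a SON peak were those of H2AC1 and H2BC1. Of the 22 genes with the octamer, 21 encode H2A or H2B. Within these families an untreated SON peak lay on 19 of 21 promoters with the octamer and 5 of 5 without it, and an HMGB2 peak on 17 of 21 and 5 of 5. The 5 without it were those of H2BC5, H2BC13, H2AC13, H2AC15 and H2BC15. With TATAAA, untreated SON peaks lay on 24 of 34 promoters and without it on 11 of 16. For CCAAT these counts were 30 of 43 and 5 of 7. None of the 6 promoters with the H1 box met a SON peak, and that of H1-4 met an HMGB2 peak. The median GC content was 41.7% at the 35 promoters with an untreated SON peak and 46.7% at the 15 without, and 41.5% and 46% with and without an HMGB2 peak. For SON the ranges were 36.3 to 50% and 36.7 to 58%, and the part of base composition in these counts was not tested.

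Histone genes are near-copies of one another in their coding parts, and the handling of reads that fit several places is not given in the sources used here. Of the 54 promoter windows listed for the 50 genes, 6 shared any 36-base word with a promoter elsewhere. They were those of H4C11 and H4C12, at 54.3% of their words, and those of H2BC13, H2AC13, H2AC14 and H2BC14, at 24.2%. Values at these 6 genes are therefore less certain. Their SON peaks were between 6.97 and 16.03 and listed in untreated cells only. Words were compared with other promoters only. Coding parts, pseudogenes and the 5 genes without a listed promoter were not checked, so values at other genes may be affected too.

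The remaining genes of the pathway were taken from 6 lists with 81 symbols, of which 80 were in the table. Among all protein-coding genes, 52.7% had an untreated SON peak, 37.1% a 3-day peak, 18.9% a 6-day peak and 20.4% an HMGB2 peak. Of 14 replication-type histone genes on chromosome 1, an untreated SON peak lay at 12, a 3-day peak at 6, a 6-day peak at 6 and an HMGB2 peak at 8. H2AC20, H2AC21 and H2BC21 had the same −log10 p in each list, namely 28.2, 16.3, 7.42 and 19.4. H2AC19 and H4C15 also had peaks in every list, and H3C14 and H3-4 had none. Of 2 further replication-type genes elsewhere, H4C16, named after its values were seen, had an untreated SON peak and H2BC12L none in any list. Genes for histone variants had 10, 4, 1 and 4 of 12 in that order of lists. H3-3B, a gene for the variant H3.3, was the one listed throughout, and H3-5 and MACROH2A2 had no peak.

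Genes for regulators of histone transcription had 10, 9, 6 and 7 of 12. Listed throughout were NPAT (40.0, 39.0, 14.6 and 10.7), HINFP, an activator of H4 genes (44.2, 69.8, 17.97 and 9.13), GON4L, TBP and CDK2, and POU2AF1 had no peak. Genes for 3′ end processing of histone mRNA and related factors had 20, 18, 8 and 4 of 22, with CPSF3 and WDR33 in every list and MIF4GD in none. Histone chaperone genes had 18, 15, 5 and 7 of 18, with ASF1B, CHAF1A and CABIN1 in every list. The lists of regulators, 3′ processing factors and chaperones stood above the 37.1% background at 3 days, at 75%, 81.8% and 83.3%, where the chromosome 6 histone genes had 41.8%. The chromosome 1 histone genes (42.9%) and the variants (33.3%) were near that background. For HMGB2 the 3′ processing genes (18.2%) were near the 20.4% background. The regulators (58.3%), chromosome 1 histone genes (57.1%), chaperones (38.9%) and variants (33.3%) stood above it, on small counts. The spans of the genes in these lists differ in length from those of the chromosome 6 histone genes, and these differences were not tested.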

How the data were processed

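The 4 peak lists used were SON without treatment, SON at 3 and 6 days of ICM, and HMGB2 without treatment, 1 per group by title and treatment label. Per the submitters' processing notes, bcl2fastq 2.17, Bowtie2, MACS2 and deepTools were used and the build was hg38. Parameters, the peak-calling control and the depth are not given in the sources used here. Per the file columns, each deposited SON list has the layout of the IDR tool for 2 replicates. It gives −log10 p for each replicate and for the peak (the lower of the 2, in column 8), −log10 of the IDR and a score scaled from it, as deposited by the authors, and placeholders in the other fields. The deposited HMGB2 list gives the authors' fold enrichment, −log10 p, −log10 q and a score from q, with a q cutoff of 0.03 in its peak names, and whether it pools replicates is not stated.

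Peaks on chromosomes 1 to 22 and X were matched to gene spans of a RefSeq table of GRCh38.p14, extended by 1 kb. Start sites, strands and promoter sequences came from the RefSeq promoter table of that build. The members, the gene lists and the tests were chosen with earlier results of these data known. All genes of the rule may be named, and those of the other lists only where they had a peak in all 4 lists or in none, with exceptions marked in the text. Planned protein comparisons were not made. Alternatives varied the window, the assignment of peaks, the threshold and the replicate. Overlap counts were tested on planted peaks and with bedtools 2.31.1. Scripts ran on Python 3.11.15 with pandas 2.3.3, numpy 2.4.6 and scipy 1.17.1, and plots were drawn with matplotlib 3.10.9.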

Additional observations from a re-analysis of the deposited data

How the results depend on the processing

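The counts of histone genes with a peak stayed within 1.5 times the main count in most of the alternatives, and 4 moved further. The untreated SON count was 26 in place of 42 with lists cut to the 5481 strongest peaks (23.4% of all protein-coding genes). With the global IDR held to 0.05, the 3-day count was 15 in place of 23 (21.3% of all) and the 6-day count 4 in place of 12 (4.30%). With the stronger 50% of the list the 6-day count was 7 (11.2%). Each of these alternatives admits fewer peaks. The HMGB2 count ranged from 28 with the gene span alone (15.6%) to 43 with a window of 5 kb (23.3%). The promoter window of 300 bases was chosen after seeing the data and covers 50 of the 55 genes. The median −log10 p of the untreated SON peaks was 14.3, and 18.5 with the values of replicate 2. With 1 list per group no replicate could be left out. The depth of the libraries is unknown, so a gene without a listed peak cannot be told from one below the authors' threshold.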

Other observations

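The member windows, the gene spans with 1 kb on both sides, cover 143 kb or 5.49% of the 2.6 Mb examined. They held 34 of the 73 untreated SON peaks there (46.6%), 17 of 34 at 3 days, 8 of 17 at 6 days and 32 of 45 HMGB2 peaks (71.1%). Outside them, 13 untreated SON peaks lay at other protein-coding genes, 17 at tRNA genes alone and 9 at neither.

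Of the 26 other protein-coding genes of the region, 12 carried an untreated SON peak, 8 a 3-day peak, 4 a 6-day peak and 3 an HMGB2 peak (46.2%, 30.8%, 15.4% and 11.5%), against 52.7%, 37.1%, 18.9% and 20.4% of all protein-coding genes. BTN3A1 and BTN2A1, butyrophilin genes, were listed throughout. The strongest SON peak of the region away from histone genes lay at BTN2A1 from 26473627 to 26474435, with a −log10 p of 40.1 in untreated cells.

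The region also holds 100 tRNA genes, short genes read by RNA polymerase III. An untreated SON peak lay within 1 kb of 24 of them and an HMGB2 peak within 1 kb of 10, against 37.0% and 25.1% of 343 tRNA genes elsewhere on these chromosomes. The strongest HMGB2 peak of the region away from histone genes, chosen after values were seen, from 26322737 to 26323208 at TRR-TCG2-1, had a −log10 p of 25.1 (rank 180). Of 13 histone pseudogenes in the region, 6 had an untreated SON peak within 1 kb and 6 an HMGB2 peak.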
